A study of Oryza sativa Japonica Group with 36 samples.

Results

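The cellulose synthase superfamily of rice and 1 xyloglucan-remodelling enzyme were followed in chilled seedlings of a pair of related lines. The genes were taken by name, and a gene belonged if its symbol or a synonym in the RefSeq gene table began with CESA, with CSL plus a letter and a number, or with XTH or XET. The table held 36 such genes. Of these, 30 had a probe set assigned to 1 gene on the array, out of 17905 genes so covered in the whole data set, and OsCslA3, OsCslA4, OsCslE6, OsCslF3, OsCslF4 and OsCslF9 had none and were not analysed here. The 30 comprise 9 cellulose synthases (CESA), 4 CSLA, 5 CSLC, 4 CSLD, 2 CSLE, 4 CSLF and 1 CSLH gene, and 1 xyloglucan endotransglucosylase/hydrolase, OsXTH8. Genes of this enzyme type under other names were not sought, so OsXTH8 does not stand for the type as a whole. They were measured by 38 probe sets, and where a gene had several (6 genes) the brightest one was used.

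Cellulose is spun at the plasma membrane by complexes of CESA proteins, with one group of isoforms at work in the thin primary wall of growing cells (in rice OsCesA1, OsCesA3, OsCesA5, OsCesA6 and OsCesA8) and another, OsCesA4, OsCesA7 and OsCesA9, in the thickened secondary wall of vessels and fibres, where loss of any member makes the rice stem brittle. The cellulose synthase-like (CSL) enzymes make other chains of the wall. CSLA proteins build mannans, CSLC proteins the glucan backbone of xyloglucan (shown in Arabidopsis), and CSLF and CSLH proteins the mixed-linkage glucan that is typical of grasses, while XTH enzymes cut and rejoin xyloglucan so that the wall can yield and set again.

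The arrays came from whole shoots of seedlings with 3 leaves. K354 is an introgression line (BC2F6) that carries segments of the indica variety Bg300 in the background of C418, and C418 is its recurrent parent, a japonica restorer line that is sensitive to cold. In each line, shoots spent 2, 6, 12, 24 or 48 h at 4 °C before they were cut, and the control was a pool of shoots kept at 25 °C and cut at 2 h and at 24 h. Each of the 12 groups had 3 arrays from separate pots, so that the p-values measure the spread between pots. Both lines were sown in the same plates, so arrays of K354 and C418 may share a plate, and the fit did not pair them. The 5 cold groups of a line were all set against the same 3 control arrays, and since that control pools both harvests, no cold group had a control of its own hour, so that cold cannot be told apart from time of day or seedling age. The whole shoot is a mixture, in which fewer cells of a type and less RNA per cell cannot be told apart.

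Intensities are linear and in arbitrary units. The median intensity of an array lay between 55.58 and 68.03, and its 25th percentile, below which a probe set was called dim, between 25.99 and 30.02. Arrays of 1 group correlated with Pearson's r of 0.979 to 0.996 over all probe sets. OsCslC3 and OsCslF7 were dim in all 12 groups, OsCslF2 in 10, OsCslF8 in 8 and OsCslD4 in 1, and the other 25 genes in none. In K354 at 24 h, replicate 2 stood apart from the other arrays of its group in several members. The 24 h changes that it moved most among members that were not dim, those of OsCslA1, OsCslC9, OsCslA7 and OsCslA9, are given without it as well. A gene is called induced or repressed where its adjusted p was under 0.05 in limma over all 57258 probe sets.

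The superfamily responded late and mostly upward. After 2 h of cold 0 members were induced and 2 repressed in each line, against 6.79% up and 20.2% down among all probe sets of K354, and 7.02% and 21.7% among those of C418. After 6 h, 5 were induced and 2 repressed in K354 (8.96% higher and 12.8% lower among all probe sets), and 4 and 2 in C418 (7.98% and 13.5%). After 12 h, 8 were induced and 3 repressed in K354 (11.9% and 19.3%), and likewise 8 and 3 in C418 (12.9% and 16.5%). After 24 h, 22 of 30 were induced and 3 repressed in K354 (19.3% and 21.8%), and 20 and 2 in C418 (18.7% and 22.5%). After 48 h the counts were 20 and 3 in K354 (23.5% and 27.1%) and 21 and 3 in C418 (25.1% and 28.3%).

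**Figure D1:**
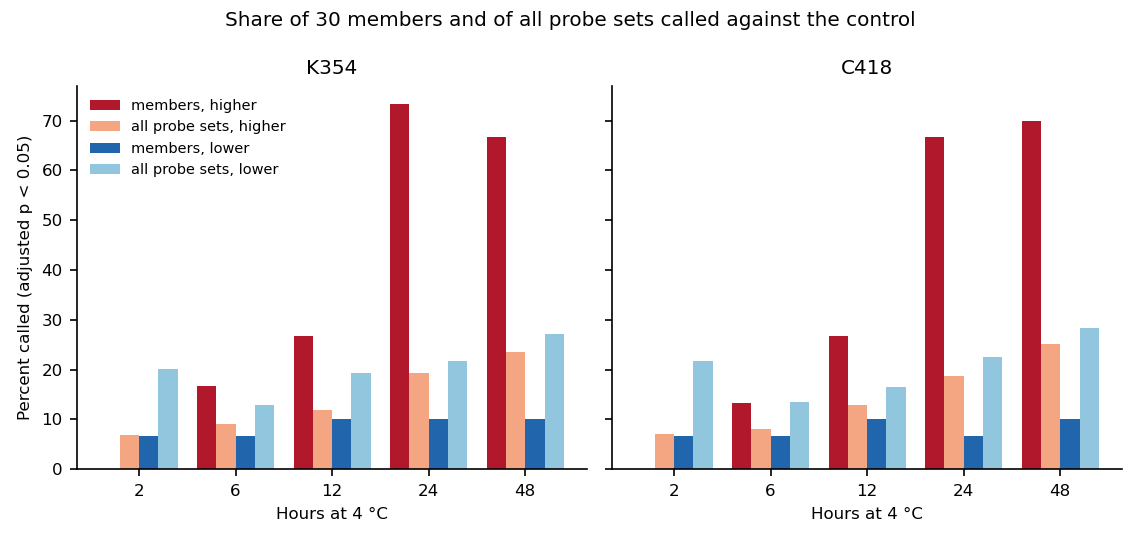
Bars give the percentage of the 30 members called higher (dark red) and lower (dark blue) than the control at each time in the cold, K354 left and C418 right, with the same percentages over all 57258 probe sets in the light colours. At 2 h no member was higher in either line, and at 24 h 22 in K354 and 20 in C418 were.

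The median log2 change of the 30 members in K354 was 0.04 at 2 h, 0.33 at 6 h, 0.21 at 12 h, 1.44 at 24 h and 1.04 at 48 h, and in C418 -0.13, -0.00, 0.11, 1.34 and 1.11 at the same times. The median over all probe sets stayed between -0.13 and 0.00 throughout. Of the members induced at 24 h, 20 were the same genes in both lines, out of 22 in K354 and 20 in C418. At 48 h the lines shared 17 of 20 induced in K354 and of 21 in C418. Between 24 and 48 h, 18 of 22 stayed induced in K354, and 17 of 20 in C418. OsXTH8 and OsCslF7 were called against the control at no time in either line.

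Changes of more than 5-fold, the size that the methods of the study asked for, were reached in the fit by 9 members in K354 at 24 h (1.86% of all probe sets were that much higher) and by 5 at 48 h (2.18%). The 9 include OsCslF8, whose control was dim. Its rise is given only as a lower bound, which is itself below 5-fold, and 8 remain when OsCslF8 is left out. In C418 they were reached by 2 at 24 h (1.65%) and by 5 at 48 h (2.67%). At these times 0 members fell by as much, against 0.313% of all probe sets at 24 h and 0.568% at 48 h in K354, and 0.341% and 1.01% in C418.

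The counts at 6 and 12 h rested on few arrays. In K354 the 12 h count was 5 without replicate 2 at 12 h, with OsCesA1, OsCesA3 and OsCesA8 lost, and also 5 without control replicate 1 or without control replicate 2. In C418 it was 5 without replicate 2 or replicate 3 at 12 h, and 4 without control replicate 1. The 24 h counts of 22 and 3 in K354 were again 22 and 3 without replicate 2 at 24 h, though OsCslA5 was no longer among the repressed and the dim OsCslF7 was.

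Adjacent times were then contrasted, a choice made after seeing the data. Between 12 and 24 h, 22 members rose and 0 fell in K354 (14.9% higher and 10.1% lower among all probe sets), and 18 rose and 0 fell in C418 (7.83% and 6.21%). The K354 count was 14 without replicate 3 at 24 h, and 6 when the compared groups alone were fitted, against 18 again in C418. Between 24 and 48 h, 4 rose and 3 fell in K354 (13.3% and 13.1%), and 5 and 2 in C418 (11.0% and 13.3%). The 4 in K354 include OsCslF7, which was dim in all 12 groups. The 3 CSLD genes OsCslD1, OsCslD2 and OsCslD5 were among those that rose in this last interval in both lines.

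**Figure D2:**
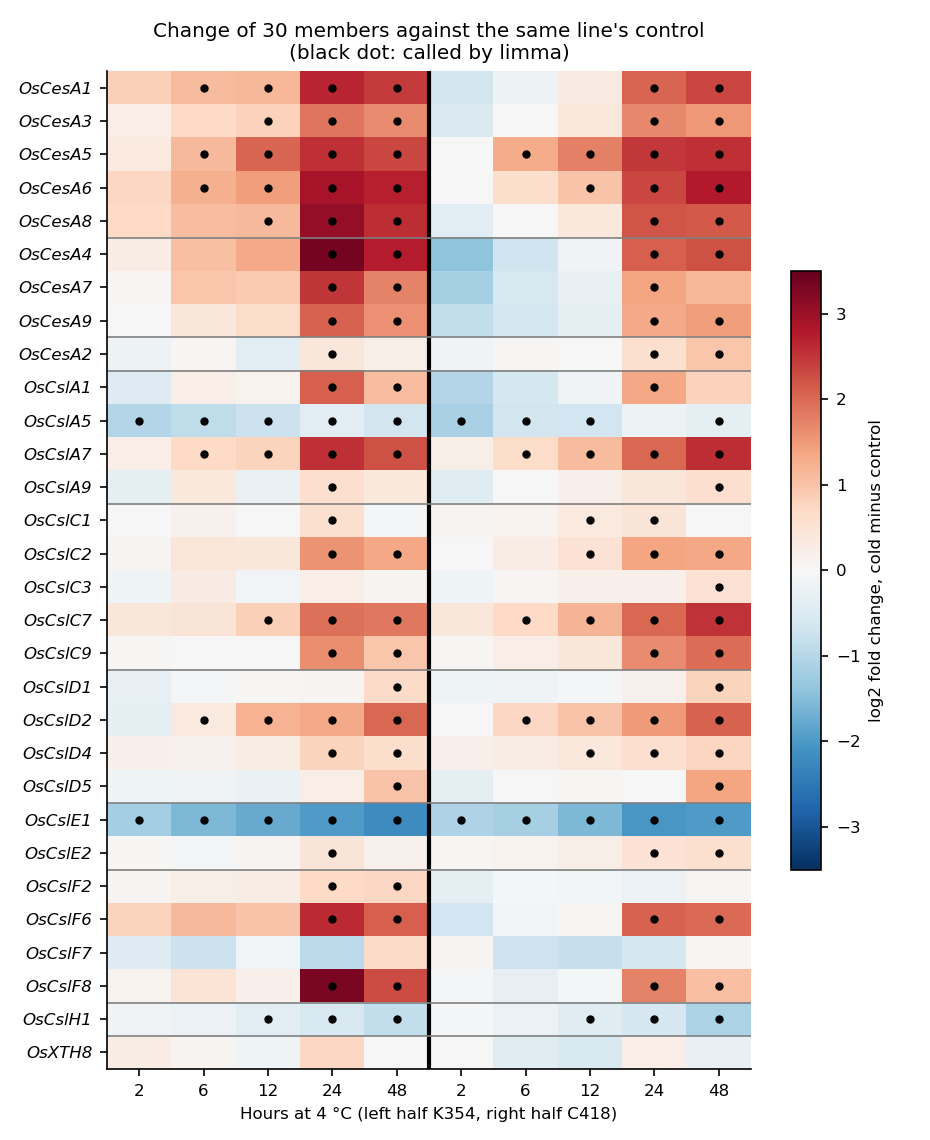
Log2 change against the control of its line for each of the 30 members (rows, grouped by subfamily) at the 5 times in the cold, K354 left and C418 right, with a dot on called changes and the fitted value also where a group was dim (OsCslC3, OsCslD4, OsCslF2, OsCslF7 and OsCslF8). Most rows are positive at 24 h, and OsCslE1, OsCslH1 and OsCslA5 stay negative, on the scale as deposited (with the poly-A scaling the 48 h median was -0.30 in K354 and -0.35 in C418).

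These directions are relative to the bulk of the transcripts. When the arrays were scaled to the hybridization control RNAs, the median of all probe sets at 48 h moved by -0.81 on the log2 scale in K354 and by -0.99 in C418, and when they were scaled to the poly-A control RNAs, by -1.35 and -1.46. The members then counted 13 higher and 8 lower in K354 and 11 and 8 in C418 under the first scaling (6.45% up and 80.0% down over all probe sets in K354, 5.97% and 84.3% in C418). Under the second they counted 9 and 12 in K354 and 6 and 13 in C418 (3.47% and 90.4% in K354, 3.69% and 91.0% in C418). A common scale moves every probe set of an array alike, so the median member stayed 1.07 above the median of all probe sets in K354 and 1.13 above it in C418. Which scale tracks the amount of RNA per shoot is unknown here, and the folds that follow are on the scale as deposited.

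The primary-wall synthases were induced as a full set. All 5 were higher at 24 and at 48 h in both lines, by 1.88 to 3.06 on the log2 scale in K354 and 1.67 to 2.47 in C418 at 24 h, and by 1.64 to 2.71 and 1.52 to 2.78 at 48 h, and all 5 kept a positive change under both control RNA scalings, with 4 in K354 and 3 in C418 called at 48 h under the poly-A scaling. In C418 OsCesA5 (NCBI Gene 4334710) was the first of them to be called, at 6 h, and in K354 OsCesA5, OsCesA1 and OsCesA6 were all first called at that time.

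OsCesA5 had intensities of 136, 168 and 205 in the K354 control, 218, 235 and 189 at 2 h, 278, 422 and 414 at 6 h, 562, 803 and 713 at 12 h, 1187, 695 and 1141 at 24 h and 782, 936 and 850 at 48 h. In C418 it had 157, 159 and 183 in the control, 137, 154 and 227 at 2 h, 637, 500 and 210 at 6 h, 416, 625 and 684 at 12 h, 885, 988 and 895 at 24 h and 989, 974 and 986 at 48 h. From 6 h on, the cold arrays of both lines lay above all 3 control arrays of their line. It was first called at 6 h in both lines, and at 48 h the log2 change was 2.35 ± 0.28 (SE) in K354 and 2.56 ± 0.28 in C418 (limma, adjusted p = 2.69e-08 and 4.08e-09, n = 3 arrays a group).

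OsCesA6 (NCBI Gene 4342850), a close relative of OsCesA5, had 170, 202 and 262 in the K354 control, 367, 361 and 310 at 2 h, 365, 694 and 462 at 6 h, 422, 935 and 479 at 12 h, 1726, 1115 and 1854 at 24 h and 960, 1675 and 1575 at 48 h. C418 arrays had 233, 275 and 285 in the control, 184, 249 and 383 at 2 h, 557, 490 and 244 at 6 h, 425, 574 and 590 at 12 h, 1440, 1516 and 1083 at 24 h and 1665, 2068 and 1727 at 48 h. All K354 cold arrays exceeded the control arrays, while at 2 and 6 h the C418 arrays still overlapped theirs. At 48 h the change was 2.71 ± 0.31 in K354 and 2.78 ± 0.31 in C418, an adjusted p of 1.81e-08 and 8.98e-09.

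OsCesA8 had 201, 251 and 466 in the K354 control, 510, 482 and 397 at 2 h, 419, 1014 and 531 at 6 h, 413, 1152 and 521 at 12 h, 2471, 1999 and 2772 at 24 h and 1032, 1883 and 2527 at 48 h. C418 arrays of this gene had 299, 399 and 436 in the control, 180, 269 and 483 at 2 h, 551, 382 and 244 at 6 h, 381, 496 and 577 at 12 h, 2233, 1767 and 1254 at 24 h and 1371, 2235 and 1502 at 48 h. Cold and control arrays overlapped up to 12 h in both lines and were apart at 24 and 48 h. Its log2 change of 2.57 ± 0.40 in K354 (adjusted p = 3.92e-06) and 2.16 ± 0.40 in C418 (adjusted p = 4.2e-05) was preceded by a larger one of 3.06 in K354 at 24 h. OsCesA1 rose by 2.44 and OsCesA3 by 1.64 in K354 at 48 h, and by 2.33 and 1.52 in C418. The second probe sets of both genes rose as well, by 2.21 and 2.65 in K354 and 2.49 and 1.97 in C418.

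**Figure D3:**
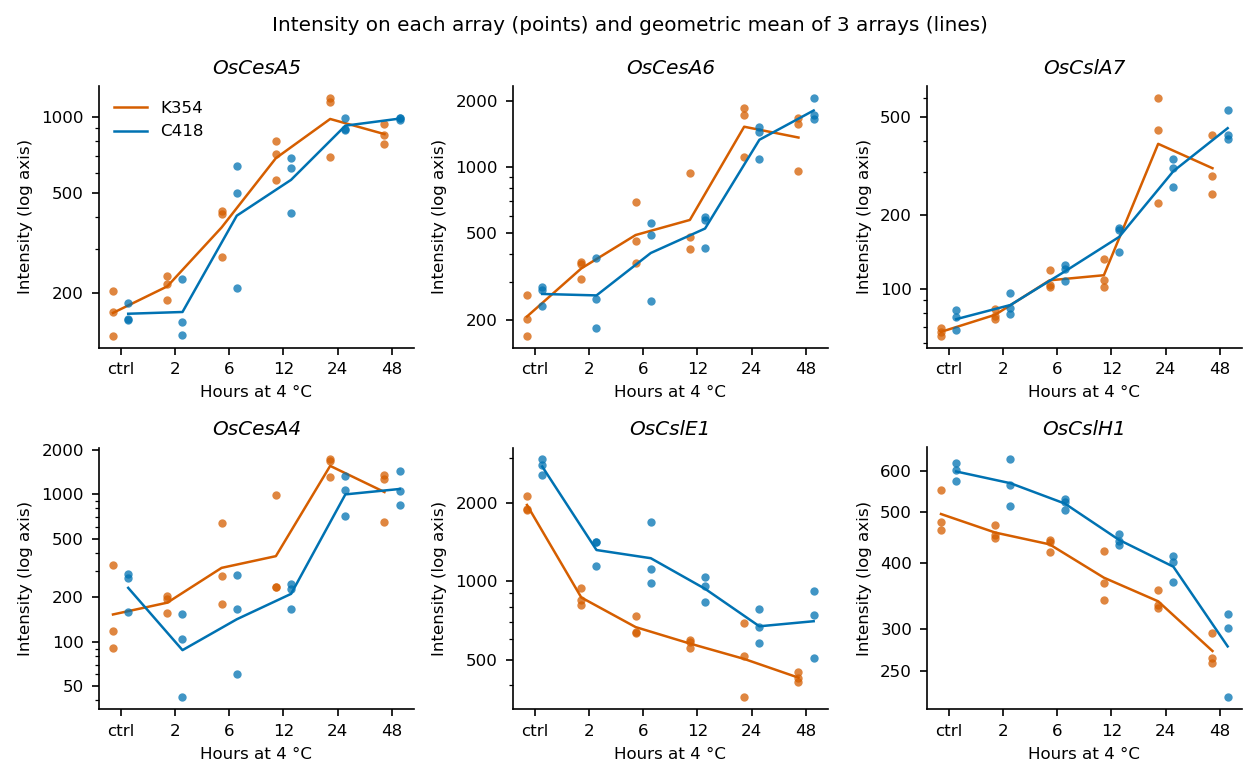
Intensity (log axis) of OsCesA5, OsCesA6, OsCslA7, OsCslE1, OsCslH1 and OsCesA4 in the control and at 2 to 48 h in the cold, 1 point for each array and a line through the group means of the log values, for K354 and C418. OsCesA5, OsCesA6, OsCslA7 and OsCesA4 end high, and OsCslE1 and OsCslH1 end low, in both lines.

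The secondary-wall trio was first called at 24 h. At 12 h its log2 changes ran from 0.65 to 1.31 in K354, and from -0.32 to -0.14 in C418. Without K354 replicate 2 at 12 h the K354 changes were 0.625 for OsCesA4, 0.291 for OsCesA7 and 0.17 for OsCesA9. OsCesA4, OsCesA7 and OsCesA9 were called at 0 of the first 3 times in either line and were all induced at 24 h, by 2.06 to 3.35 on the log2 scale in K354 and by 1.34 to 2.11 in C418. All 3 stayed positive at 24 h under both control RNA scalings, though none of them was called in C418 under the poly-A scaling.

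OsCesA4 had 91.0, 119 and 332 in the K354 control, 204, 196 and 156 at 2 h, 179, 637 and 278 at 6 h, 236, 988 and 236 at 12 h, 1669, 1311 and 1721 at 24 h and 646, 1272 and 1346 at 48 h. In C418 it had 159, 288 and 272 in the control, 42.1, 104 and 155 at 2 h, 283, 167 and 60.6 at 6 h, 167, 226 and 248 at 12 h, 1321, 1060 and 708 at 24 h and 848, 1443 and 1045 at 48 h. Single arrays at 6 and 12 h reached far above their neighbours, and only from 24 h on did every cold array exceed the controls. The 24 h change was 3.35 ± 0.57 in K354 (adjusted p = 1.69e-05) and 2.11 ± 0.57 in C418 (adjusted p = 0.00328). The second probe set of OsCesA4 rose less, by 1.14 in K354 and 0.83 in C418.

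OsCesA7 had 76.6, 115 and 229 in the K354 control, 166, 130 and 106 at 2 h, 154, 451 and 216 at 6 h, 174, 570 and 138 at 12 h, 829, 512 and 886 at 24 h and 270, 509 and 531 at 48 h. Its C418 intensities were 120, 211 and 218 in the control, 47.2, 89.8 and 116 at 2 h, 215, 134 and 59.2 at 6 h, 119, 161 and 165 at 12 h, 560, 548 and 313 at 24 h and 319, 618 and 309 at 48 h. The 24 and 48 h arrays lay above the controls in both lines, and the 2 h arrays of C418 lay below theirs. The 24 h change was 2.51 ± 0.51 in K354 (adjusted p = 0.000165; 2.76 without replicate 2) and 1.37 ± 0.51 in C418 (adjusted p = 0.0302), and the C418 call was lost without C418 replicate 1 (1.23) or replicate 2 (1.25) at 24 h or without control replicate 1 (1.10). At 48 h it was 1.73 in K354 (adjusted p = 0.00544) and 1.15 in C418 (adjusted p = 0.0569), and that of C418 missed the threshold. The poly-A scaling moved the median of all probe sets of C418 at 48 h by -1.46, more than this 1.15, and so made it negative.

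OsCesA9 had 46.8, 47.5 and 80.0 in the K354 control, 61.8, 54.2 and 51.1 at 2 h, 53.3, 103 and 73.1 at 6 h, 59.9, 170 and 66.8 at 12 h, 272, 177 and 269 at 24 h and 114, 201 and 222 at 48 h. The C418 arrays had 55.4, 79.2 and 83.3 in the control, 30.3, 36.8 and 55.5 at 2 h, 65.2, 52.6 and 29.6 at 6 h, 45.4, 60.1 and 68.7 at 12 h, 231, 173 and 148 at 24 h and 178, 236 and 178 at 48 h. The 24 and 48 h arrays were above the controls in both lines. Its 48 h change was 1.61 ± 0.35 in K354 (adjusted p = 0.000262) and 1.45 ± 0.35 in C418 (adjusted p = 0.00074), and with poly-A scaling the C418 value was -0.01.

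The 3 secondary-wall genes varied from pot to pot in step. In 8 of 12 groups the 3 arrays stood in the same order for all 3 genes, and in 10 of 12 the same array was the brightest. Over the 36 arrays, the deviations of the 3 genes from their group means correlated with r of 0.95 to 0.97. When OsCesA1, OsCesA8 and OsCslF6 were added, the counts were again 8 and 10 of 12 and r ran between 0.93 and 0.98. These additions are the members outside the trio most like OsCesA4 on the same arrays, so their high values follow from the choice. The arrays with high values were K354 replicate 2 at 6 h and at 12 h, K354 control replicate 3 and C418 replicate 1 at 6 h. C418 replicate 1 at 2 h and C418 replicate 3 at 6 h were low. Points from 1 array share its RNA and its normalization, so these correlations describe the arrays and carry no test.

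**Figure D4:**
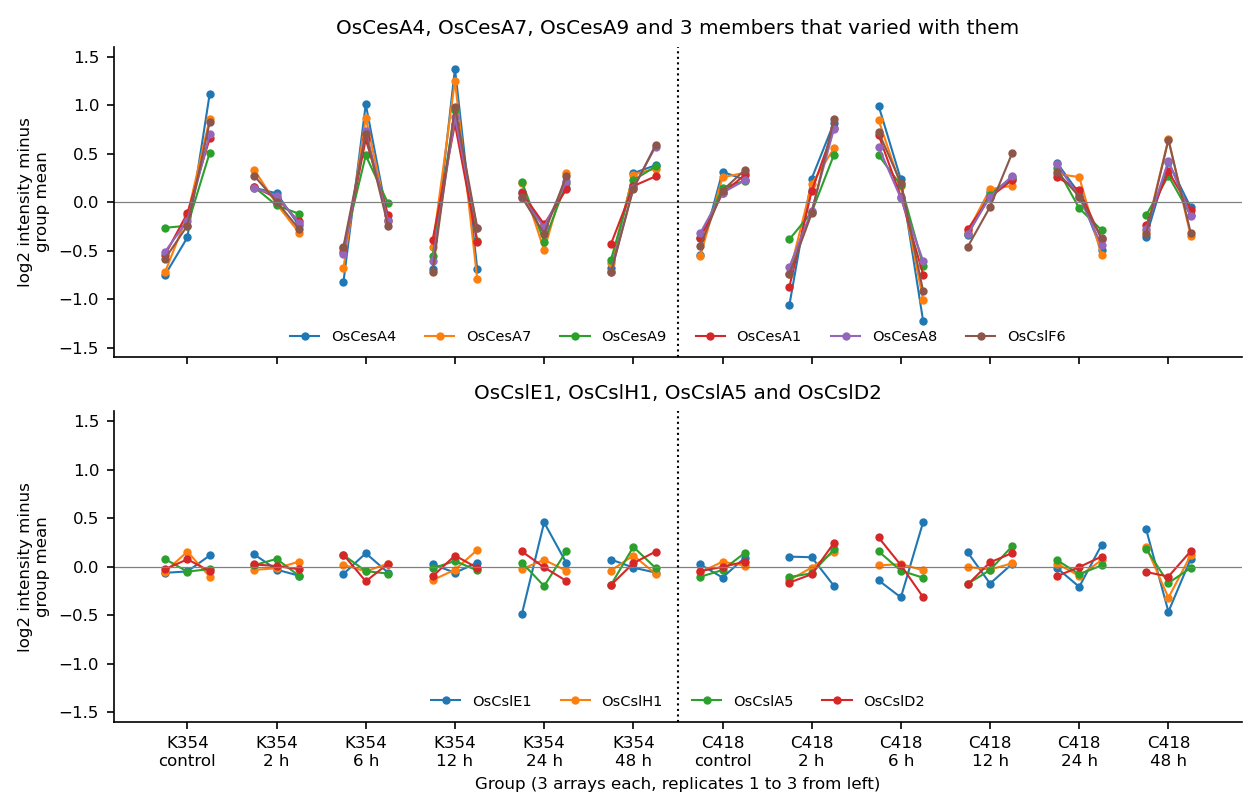
Deviation of each array (log2) from the mean of its group, for the 36 arrays, with the secondary-wall synthases OsCesA4, OsCesA7 and OsCesA9 together with OsCesA1, OsCesA8 and OsCslF6, and in the lower panel OsCslE1, OsCslH1, OsCslA5 and OsCslD2. The 6 genes rise and fall together from array to array, with r of 0.93 to 0.98, and OsCslE1 (-0.34 with OsCesA4) and OsCslH1 (-0.06) do not share the pattern. OsCesA1, OsCesA8 and OsCslF6 are the members outside the trio most like OsCesA4 on these arrays.

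By the same measure the members most like OsCesA4 were OsCesA1 (r = 0.98), OsCesA7 (0.97), OsCesA8 (0.96), OsCslF6 (0.95) and OsCesA9 (0.95), over 36 arrays. OsCesA6, OsCesA3 and OsXTH8 followed at 0.94, 0.93 and 0.93, while OsCesA5 reached 0.74. Outside the superfamily, 12 partners of cellulose synthesis were set beside OsCesA4 in the same way. The highest were BC1, a COBRA-like protein needed for secondary-wall cellulose in rice, at 0.97 and the endoglucanase OsGLU2 at 0.96. The other partners ran from 0.625 (OsGLU1) to -0.255 (OsSUS4), with the COBRA-like BC1L6 at 0.42 and BC1L9 at 0.38. The residual spread of OsCesA4 was accordingly wide, at 0.74 on the log2 scale, against 0.14 for OsCslA5.

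OsCesA2, the remaining cellulose synthase, had low intensities and was induced at 24 h in both lines and at 48 h in C418. It had 36.3, 40.6 and 47.0 in the K354 control, 42.7, 35.0 and 32.5 at 2 h, 38.2, 51.3 and 38.0 at 6 h, 34.1, 34.9 and 26.8 at 12 h, 53.7, 46.6 and 62.8 at 24 h and 50.7, 41.2 and 51.8 at 48 h. Intensities in C418 were 33.6, 32.0 and 34.7 in the control, 24.0, 35.8 and 34.0 at 2 h, 34.2, 33.6 and 35.3 at 6 h, 30.8, 31.9 and 40.1 at 12 h, 51.6, 47.4 and 48.1 at 24 h and 70.5, 66.8 and 58.8 at 48 h. The C418 arrays of 24 and 48 h were separated from their control and the K354 arrays overlapped theirs. At 48 h the log2 change was 0.21 ± 0.15 in K354 (adjusted p = 0.249) and 0.96 ± 0.15 in C418 (adjusted p = 3.22e-06), and the sign turned with the hybridization scaling to -0.59 in K354 and -0.03 in C418.

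Among the CSLA genes, 2 rose at 48 h and 1 fell in each line, and 1 of 4 kept a positive change under the poly-A scaling. OsCslA7 (NCBI Gene 4343994) led them. It had 64.5, 69.6 and 66.5 in the K354 control, 82.7, 75.3 and 77.7 at 2 h, 104, 120 and 102 at 6 h, 102, 132 and 109 at 12 h, 443, 224 and 601 at 24 h and 244, 426 and 289 at 48 h. In C418 it had 82.3, 67.8 and 76.6 in the control, 79.1, 83.9 and 95.9 at 2 h, 121, 125 and 108 at 6 h, 141, 174 and 177 at 12 h, 311, 339 and 261 at 24 h and 534, 409 and 425 at 48 h. The arrays were clear of the controls from 6 h in both lines. At 48 h the change was 2.22 ± 0.22 in K354 (adjusted p = 8.55e-10) and 2.59 ± 0.22 in C418 (adjusted p = 2.74e-11). In K354 at 24 h the change was 2.55, and 2.95 without replicate 2.

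OsCslA1 was induced in K354 at 24 h (2.09, and 2.62 without replicate 2) and 48 h (1.07) and in C418 at 24 h (1.35), with 0.81 and an adjusted p of 0.115 in C418 at 48 h. OsCslA9 was called at 24 h in K354 (0.59, and 0.86 without replicate 2) and at 48 h in C418 (0.59).

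At 2 h the median log2 change of the 4 CSLA genes was -0.38 in K354 and -0.73 in C418, and at 24 h it was 1.34 and 0.88. OsCslA5 was already repressed at 2 h, and its change stayed negative at all 5 times. It had 233, 213 and 217 in the K354 control, 110, 115 and 102 at 2 h, 129, 115 and 113 at 6 h, 130, 137 and 128 at 12 h, 175, 148 and 190 at 24 h and 125, 164 and 141 at 48 h. C418 arrays had 241, 253 and 286 in the control, 110, 113 and 134 at 2 h, 186, 162 and 154 at 6 h, 145, 160 and 190 at 12 h, 241, 218 and 232 at 24 h and 235, 184 and 205 at 48 h. The lowest values came after 2 h, and by 24 h the C418 arrays had reached the edge of the control range while those of K354 remained below it. At 48 h the change was -0.63 ± 0.12 in K354 (adjusted p = 3.41e-05) and -0.33 ± 0.12 in C418 (adjusted p = 0.0187). The C418 call was lost without replicate 2 at 48 h (-0.24) or control replicate 3 (-0.26), and the K354 call at 24 h without replicate 2 (-0.27).

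Of the 5 CSLC genes, 4 were induced at 24 h in each line, and at 48 h 3 in K354 and 4 in C418 were, with 2 of 5 keeping a positive change at 48 h under the poly-A scaling in each line. OsCslC7 was induced most, by 1.85 in K354 and 2.54 in C418 at 48 h. OsCslC2 rose by 1.35 and 1.36, and OsCslC9 by 0.96 and 1.95. At 24 h the change of OsCslC9 was 1.63 in K354, and 2.16 without replicate 2. OsCslC1 rose briefly, by 0.56 in K354 and 0.46 in C418 at 24 h, and was back at -0.06 and -0.01 at 48 h. OsCslC3 was called only in C418 at 48 h, and since it was dim in all groups no fold is given.

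The 4 CSLD genes, relatives of the cellulose synthases known for the growth of root hairs and other cells with a wall laid down at the tip, were all induced at 48 h in both lines, though 1 of 4 kept a positive change under the poly-A scaling and 2 of 4 under the hybridization scaling. OsCslD2 was the early one, called from 6 h on in both lines and at 2.02 in K354 and 2.06 in C418 at 48 h. OsCslD4 rose by 0.76 in C418 at 48 h, and in K354, where its control was dim, by at least 1.32-fold.

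OsCslD5 and OsCslD1 were called only at 48 h. OsCslD5 had 61.9, 69.7 and 66.8 in the K354 control, 54.2, 64.3 and 60.8 at 2 h, 60.0, 55.3 and 65.5 at 6 h, 64.8, 48.9 and 54.8 at 12 h, 70.6, 62.1 and 104 at 24 h and 111, 132 and 161 at 48 h. In C418 it had 48.8, 52.1 and 43.5 in the control, 38.5, 39.6 and 37.8 at 2 h, 47.6, 47.8 and 48.6 at 6 h, 55.6, 50.8 and 43.4 at 12 h, 41.3, 47.7 and 57.2 at 24 h and 108, 123 and 147 at 48 h. Only the 48 h arrays stood fully clear above the controls. The 48 h change was 1.01 ± 0.16 in K354 (adjusted p = 2.77e-06) and 1.38 ± 0.16 in C418 (adjusted p = 9.22e-09), with -0.34 and -0.07 under the poly-A scaling. OsCslD1 rose by 0.67 and 0.78.

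The genes of mixed-linkage glucan split. OsCslF6, whose product makes most of this glucan in rice, had 1321, 1016 and 1538 at 24 h in K354, against 139, 176 and 369 in the control. In the C418 arrays it had 1356, 1137 and 846 at 24 h, against 192, 285 and 330. The groups were far apart in both lines, and the change was 2.62 ± 0.47 in K354 (adjusted p = 3.77e-05) and 2.06 ± 0.47 in C418 (adjusted p = 0.000668). Its 2 other probe sets were dim and did not pass the test, with 24 h values of 0.10 and -0.09 in K354 and 0.09 and 0.10 in C418.

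OsCslF8 had 169, 105 and 157 at 24 h in K354, against 12.6, 11.9 and 19.2 in the control, and 79.0, 69.0 and 31.8 in C418 against 14.5, 16.2 and 20.1. Both controls were dim, so the rise is a bound of at least 4.94-fold in K354 (adjusted p = 6.86e-08) and at least 2.0-fold in C418 (adjusted p = 0.000688). OsCslF2 was called in K354 alone, at 24 and 48 h, from a dim control. Its arrays had 16.2, 16.7 and 42.5 at 24 h and 18.7, 29.2 and 22.5 at 48 h, against 13.6, 12.7 and 16.0 in the control, and the bound gives no fold above 1. OsCslF7 had at most 8.73 on any array.

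OsCslH1 (NCBI Gene 4348359), on the same pathway, was repressed. It had 479, 552 and 462 in the K354 control, 447, 452 and 474 at 2 h, 440, 420 and 444 at 6 h, 341, 367 and 423 at 12 h, 333, 356 and 329 at 24 h and 265, 295 and 259 at 48 h. In C418 it had 573, 619 and 602 in the control, 515, 564 and 630 at 2 h, 524, 529 and 506 at 6 h, 442, 434 and 454 at 12 h, 403, 369 and 413 at 24 h and 321, 223 and 302 at 48 h. The decline was stepwise, and from 6 h on no cold array overlapped its controls. It was called from 12 h on, and at 48 h the change was -0.86 ± 0.10 in K354 (adjusted p = 3.13e-08) and -1.10 ± 0.10 in C418 (adjusted p = 2.12e-10).

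OsCslE1 (NCBI Gene 4347370) was the member with the deepest fall at 48 h, and with OsCslA5 it was one of the 2 already repressed at 2 h. It had 1887, 1906 and 2136 in the K354 control, 946, 849 and 813 at 2 h, 633, 734 and 639 at 6 h, 586, 552 and 593 at 12 h, 358, 690 and 516 at 24 h and 448, 423 and 408 at 48 h. C418 arrays had 2819, 2567 and 2957 in the control, 1420, 1414 and 1152 at 2 h, 1115, 987 and 1692 at 6 h, 1037, 830 and 957 at 12 h, 665, 581 and 784 at 24 h and 918, 509 and 743 at 48 h. Every cold array was below every control array of its line at all 5 times. At 48 h the change was -2.21 ± 0.19 in K354 (adjusted p = 9.69e-11) and -1.98 ± 0.19 in C418 (adjusted p = 6.8e-10), and it was called at all 5 times in both lines.

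The other CSLE gene, OsCslE2, rose by 0.45 in K354 and 0.51 in C418 at 24 h, and at 48 h stood at 0.14 in K354 (adjusted p = 0.26) and 0.57 in C418 (adjusted p = 2.09e-05), with -0.67 and -0.42 under the hybridization scaling. OsXTH8 had 888, 1421 and 1617 at 48 h in K354, against 1006, 1239 and 1657 in the control, and 806, 1479 and 952 in C418 against 917, 1517 and 1386. These groups overlapped in both lines, with a change of -0.01 ± 0.31 in K354 (adjusted p = 0.99) and -0.26 ± 0.31 in C418 (adjusted p = 0.515). At 24 h OsXTH8 had 2169, 1791 and 2330 in K354, all above the control arrays. The change at that time was 0.71 in K354 and 0.22 in C418, neither of them called. Its rise between 12 and 24 h was called in K354 (0.87) but not in C418 (0.77).

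The lines themselves were then compared at each time. In a comparison of K354 with C418, a base difference under a probe and a difference in transcript level cannot be told apart. In the control, 0 members differed by limma, where 9.47% of all probe sets did. The lowest adjusted p belonged to OsCslD5 (0.46 ± 0.16, adjusted p = 0.0604), OsCslH1 (-0.27 ± 0.10, adjusted p = 0.112) and OsCslE1 (-0.49 ± 0.19, adjusted p = 0.131), whose control arrays did not overlap between the lines. The control arrays of 3 members lay fully higher in K354 and those of 4 fully lower, and the share of all probe sets that did so was not counted. With only the control groups in the fit, 2 members were called, and the share of all probe sets in that fit is not given here.

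In the cold, 3 members were higher and 4 lower in K354 at 2 h (15.2% of all probe sets differed in either direction), 3 and 3 at 6 h (18.0%), 0 and 1 at 12 h (16.2%), 3 and 1 at 24 h (11.4%) and 0 and 7 at 48 h (20.4%). At 2 and 6 h OsCesA1 was higher in K354 by 1.38 and 1.19, and OsCesA3 by 0.81 and 0.78. These calls were lost without some single arrays, that of OsCesA1 at 2 h without K354 replicate 1 or C418 replicate 1, and the value without 1 array ranged between 0.94 and 1.76.

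OsCslE1 was lower in K354 at 2, 6, 12 and 48 h, with differences of -0.61, -0.88, -0.70 and -0.72. OsCslA5 was lower at 6, 24 and 48 h, with -0.49, -0.43 and -0.54. OsCslC9 was lower at 48 h, at -1.20 ± 0.28 (adjusted p = 0.0018), with 48.5, 92.3 and 64.0 in K354 against 172, 146 and 139 in C418, which did not overlap. Only 5 of these calls held in each of the 6 fits without 1 array, namely OsCslD5 at 2 h (0.63), OsCslE1 at 6 h, OsCslA5 at 6 and 48 h and OsCslC9 at 48 h. Under the poly-A scaling OsCslD5 at 2 h (limma, adjusted p = 0.0769) and OsCslA5 at 6 h (adjusted p = 0.146) were not called. Both were called under the hybridization scaling, and the rest of these calls held under both scalings. At 24 h the count was 7 without K354 replicate 2 and 1 without K354 replicate 3.

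**Figure D5:**
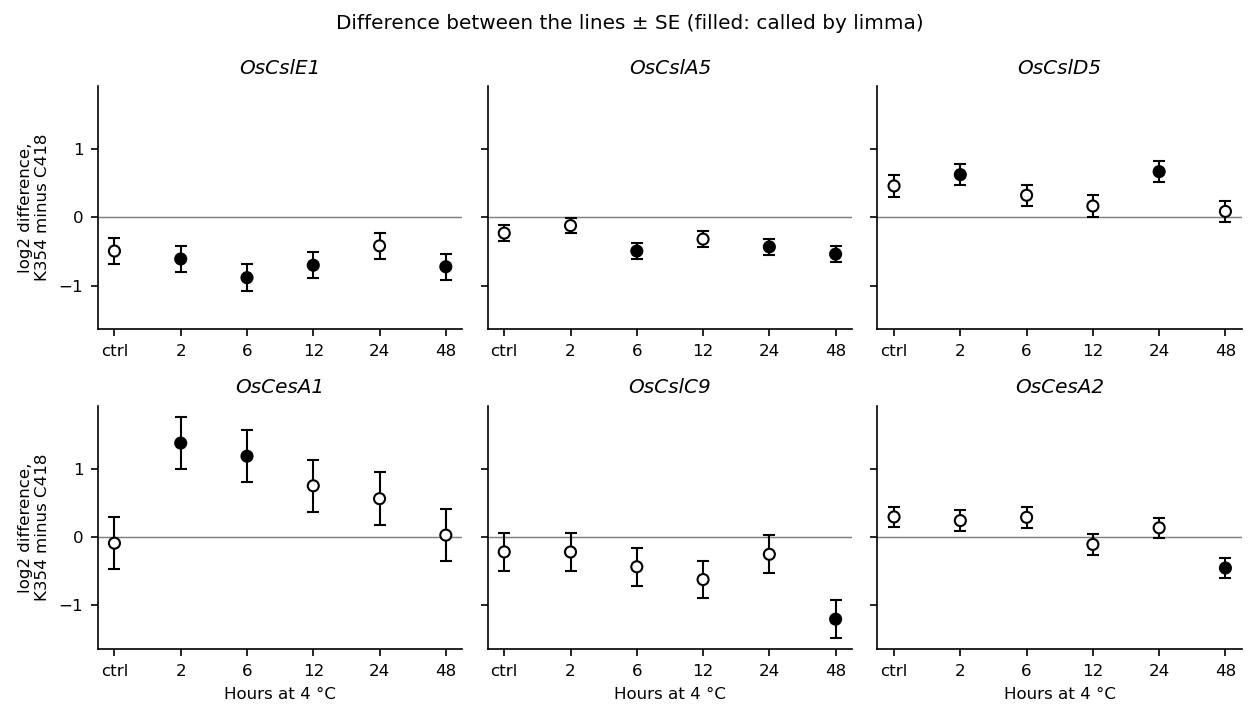
Log2 difference (K354 minus C418, points, with SE bars) of OsCslE1, OsCslA5, OsCslD5, OsCesA1, OsCslC9 and OsCesA2 in the control and at the 5 times in the cold, filled where called. OsCslE1 was lower in K354 in each group and was called at 2, 6, 12 and 48 h, and none of the 6 was called in the control.

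Whether the lines differed in the size of the cold response was tested by the interaction, the change in K354 minus the change in C418. At 2, 6, 12 and 24 h, 0 members were called by limma (1.62%, 0.391%, 1.76% and 1.56% of all probe sets), and 3, 5, 1 and 2 had an unadjusted p under 0.05. At 48 h, 1 was called (7.88%), OsCesA2, at -0.75 ± 0.21 (adjusted p = 0.0269), a call lost in 5 of 12 fits without 1 array. For OsCesA4 the interaction was 1.24 ± 0.80 at 24 h and for OsCesA5 0.08 ± 0.39, neither of them called.

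Other genes of the wall were counted for comparison at 48 h, against the shares of all probe sets given for that time. Of 12 partners of cellulose synthesis, 7 were induced and 1 repressed in K354, and 6 and 1 in C418. BC1L9, a COBRA-like gene, rose by 3.42 in K354 and 5.96 in C418, OsGLU1, a membrane endoglucanase, by 2.46 and 2.83, and BC1L6 by 2.31 and 2.25, while the sucrose synthase OsSUS2 was repressed, at -0.96 and -0.74. Of 9 genes that make nucleotide sugars, 6 were induced and 1 repressed in K354, and 6 and 2 in C418. UGD3, a UDP-glucose dehydrogenase, rose by 1.81 and 2.34, the epimerase gene OsUGE-1 by 1.58 in both and the mutase gene OsUAM1 by 1.16 and 1.53, with UGD5 at -0.67 and -0.66.

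Of 9 xylan and xyloglucan transferases, 4 were induced and 1 repressed in K354, and 4 and 2 in C418. OsXXT1, which adds xylose to the xyloglucan backbone, rose by 2.23 in K354 and 2.11 in C418, and OsGT43H by 1.17 and 1.50. Of 18 lignin genes, 7 were induced and 5 repressed in K354, and 6 and 5 in C418, with PAL06 up by 2.98 and 4.78 and OsCAD8A down at -2.13 and -3.84. Of 25 expansins, which loosen walls, 6 were induced and 5 repressed in K354, and 8 and 8 in C418. OsEXPA1 rose by 1.63 and 2.27, and OsEXPA2 was repressed, at -1.39 and -2.02. Of 2 pectin methylesterase inhibitors, OsPMEI28 rose by 3.29 and 3.46 and OsPMEI8 was at 0.24 (not called) and 0.42.

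Markers of dividing cells moved at the same times. The summed intensity of 11 such genes was 739 to 2474 in K354 at 24 h and 1481 to 1810 at 48 h, against 348 to 393 in the control, and 766 to 2045 and 1211 to 1655 in C418, against 323 to 340. At 24 h 8 of 11 were called higher in each line and at 48 h 6 in K354 and 7 in C418, with 0 lower, beside 19.3% and 18.7% of all probe sets called higher at 24 h and 23.5% and 25.1% at 48 h. K354 replicate 2 at 24 h had the low sum of 739, beside 2474 and 1926 in the other arrays, and was also low in OsCslA7, OsCslA1 and OsCslC9. In C418 at 24 h the sum of 2045 came from replicate 2 alone, beside 766 and 783. That array was also the highest of its group in OsCslA7, OsCslA1 and OsCslC9. The sum of 7 leaf genes was 51672 to 54938 in K354 and 31620 to 43536 in C418 at 48 h, against 66817 to 67021 and 66536 to 67550 in the controls, with 4 of 7 called lower and 1 higher in K354, and 6 lower and 1 higher in C418 (27.1% and 28.3% of all probe sets were lower). At 24 h it was 52380 to 58912 in K354 and 51019 to 55532 in C418, with 2 and 4 called lower (21.8% and 22.5%). The sum of 7 endosperm genes in K354 was 709 to 908 at 24 h and 950 to 1065 at 48 h, against 988 to 1052 in the control, with 4 and then 2 called lower, and in C418 it was 918 to 983 and 833 to 972, against 966 to 1014, with 2 and 3 lower and 1 higher at 48 h. The sum of 2 meristem genes in K354 was 87.3 to 129 at 24 h, above the 73.4 to 84.4 of the control, and 51.4 to 67.2 at 48 h, below it, with 1 gene called higher at 24 h and 1 lower at 48 h. In C418 it was 73.0 to 125 and 52.3 to 74.2, against 70.7 to 73.8, with 0 called. The part of these cell types in the changes of the wall genes was not tested.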

How the data were processed

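Affymetrix rice arrays were hybridised with RNA of 36 shoot samples, in 12 groups of 3. The deposited values are linear intensities per probe set, made by the authors with GCOS and dChip (invariant set) per the paper's methods, while the labels name MAS5; which of them set the scale is not stated, the dChip version is not given in the sources used here, and no depth applies, so the number of arrays limits the precision. The table held 0 columns of other samples. Log2 intensities, with neither background correction nor a floor, were fitted in limma 3.58.1 (R 4.3.3) as 1 model of 12 groups over 57258 probe sets, leaving out 123 array controls, with Benjamini-Hochberg adjustment in each of 25 comparisons and calls at 0.05. Tables used numpy 2.4.6 and pandas 2.3.3 under Python 3.11.15, and plots matplotlib 3.10.9. The fit was tested on simulated data. Genes came from the platform annotation and the RefSeq table (22436 probe sets with 1 gene, 95 with several and 34850 with none listed). No coordinates are given, since the files name no build. In the text a change of a single member from a dim group is given as a bound, against the 25th percentile of each array where that is higher. Every array is given for the 5 marker genes, the secondary-wall synthases, the 3 largest rises and falls at 48 h in each line, the 3 lowest adjusted p between the lines in the control and members called in an interaction, and from each wall list up to 3 genes a direction. The members and lists were chosen with earlier results of these data known. Replicate numbers did not pair the arrays. Alternatives were normalization, control RNA scalings, floor, dim filter, probe set rule, replicate block, smaller fits, the methods' t-test and leaving out each array.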

Additional observations from a re-analysis of the deposited data

Results flagged for a closer look

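OsCesA2 is listed because its response differed between the lines at 48 h in a test of the difference itself. Its change in K354 minus its change in C418 was -0.75 ± 0.21 on the log2 scale (limma, adjusted p = 0.0269), from 0.21 in K354 and 0.96 in C418, and 3 of 3 C418 cold arrays exceeded the control arrays of that line. The call was lost in 5 of 12 fits without 1 array (K354 replicate 2 or C418 replicate 1 at 48 h, K354 control replicate 3, C418 control replicate 1 or 2), with values between -0.84 and -0.64. Under the hybridization scaling the difference was -0.57 (adjusted p = 0.186) and under the poly-A scaling -0.64 (adjusted p = 0.205). The second probe set of the gene had changes of 0.41 in K354 and 0.32 in C418 at 48 h.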

How the results depend on the processing

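With all arrays and both lines kept, the counts at 24 and 48 h stayed within 1.5 times the reported ones under quantile normalization, a floor at the 25th percentile, a filter on dim probe sets and fits of the compared groups alone, but several did not under the scalings to control RNAs, and none did with a 5-fold minimum. The replicate numbers did not pair the arrays, the correlations of same-numbered deviations running between -0.50 and 0.34, and with a replicate block 23 members were higher at 24 h and 20 at 48 h in K354, and 20 and 22 in C418. With the 5-fold minimum, by limma or by the methods' t-test (unadjusted or adjusted), 9 members were higher at 24 h (8 with OsCslF8 at its bound) and 5 at 48 h in K354, and 2 and 5 in C418. At the other times, in the lower direction, between the lines and in the interaction at 48 h the counts were 0, and between 12 and 24 h in K354 the count was 1 (0 by the adjusted t-test). Scaled to the hybridization controls, K354 had 2 higher at 6 h, 3 higher and 10 lower at 12 h, 13 and 8 at 48 h and, between 24 and 48 h, 1 and 21. Likewise scaled, C418 had 4 lower at 2 h, 4 higher at 12 h, 7 lower at 24 h, 11 higher and 8 lower at 48 h, 2 lower between 12 and 24 h and 1 higher and 6 lower between 24 and 48 h, and the lines differed in 8 members at 12 h and 2 at 48 h. Scaled to the poly-A controls, K354 had 2 higher at 6 h, 3 higher and 11 lower at 12 h, 9 lower at 24 h, 9 higher and 12 lower at 48 h and, between 24 and 48 h, 1 and 23. C418 then had 1 higher and 8 lower at 6 h, 3 and 12 at 12 h, 10 and 14 at 24 h, 6 and 13 at 48 h, 11 and 2 between 12 and 24 h and 1 and 6 between 24 and 48 h, and the lines differed in 1 member at 2 h and 3 at 48 h. The interaction at 48 h had 0 calls under either scaling. The median of all probe sets moved as well, to -0.52 in K354 at 12 h and -0.43 between 24 and 48 h under the hybridization scaling. Under the poly-A scaling it was -1.06 in C418 at 24 h. Relative to it, the median member stood at 0.29, -0.22 and 1.375 in these 3 cases. Shares over all probe sets are given for the control RNA scalings at 48 h only, and the other counts here lack one. The poly-A scaling reversed the member median at 48 h, to -0.30 in K354 and -0.35 in C418. In C418 at 48 h it also reversed OsCesA7, and OsCesA9, the latter to -0.005. It put OsCesA2 at -0.41 and -1.13 in K354 at 24 and 48 h and at -0.48 and -0.49 in C418, and OsCslD5 at -0.58 and -0.34 in K354 and at -1.02 and -0.072 in C418. The hybridization scaling put OsCesA2 at -0.59 in K354 at 48 h and at -0.015 and -0.026 in C418 at 24 and 48 h, and OsCslD5 in C418 at 24 h at -0.56. Quantile normalization gave 2 higher at 2 h and 10 at 6 h and 1 lower between 12 and 24 h in K354, 3 higher at 2 h in C418 and 2 interactions at 48 h. The floor gave 2 interactions, and the demand that all probe sets of a gene be called gave 0. The dim filter gave 4 lower at 2 h in C418 and 1 line difference in the control and 2 at 12 h. Fits of the compared groups alone gave 3 higher and 4 lower at 2 h, 5 higher at 12 h, 6 higher between 12 and 24 h and 2 higher and 0 lower between 24 and 48 h in K354, 6 lower at 2 h and 1 lower between 24 and 48 h in C418, and 2, 4, 0 and 1 line differences in the control and at 2, 24 and 48 h. Leaving out 1 array at a time, in order of time from 2 h to 48 h, gave between 0 and 1, 2 and 6, 5 and 11, 19 and 23, and 18 and 21 higher in K354, and between 0 and 1, 2 and 5, 4 and 8, 18 and 20, and 19 and 21 in C418. Lower counts were 2 and 2 at 2 and 6 h, between 3 and 4 at 12 h and then 3 and 3 in K354, and in C418 between 2 and 6 (the 6 without replicate 3 at 2 h), then 2, 3 and 2, and between 2 and 3 last. For the lines, differences at 2 h numbered between 2 and 6, at 6 h between 3 and 6, at 12 h between 1 and 2, at 24 h between 1 and 7 and at 48 h between 2 and 6, with the 2 at 48 h without C418 replicate 1, and 0 to 1 interactions at 24 h (1 without K354 replicate 2) and 0 to 3 at 48 h. Between 12 and 24 h it gave 14 to 22 higher and 0 to 1 lower in K354 and 13 to 17 higher in C418, and between 24 and 48 h 3 to 4 higher and 1 to 7 lower in K354 (1 without replicate 1 at 48 h, 7 without replicate 2 at 24 h or at 48 h) and 3 to 4 higher and 2 to 3 lower in C418. At 6 h the K354 count was 3 without replicate 2 or 3 or control replicate 2 and 2 without control replicate 1, and the C418 count 2 without replicate 1. The causes of these shifts were not tested. Taking members by symbol alone left no genes, so it has no value, and the intended search of promoter motifs was not run for want of sequence. Signals near the 25th percentile of an array limit what can be said of OsCslC3, OsCslF2, OsCslF7 and OsCslF8.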
